A study of Mus musculus with 8 samples.

Results

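Gained regions are described here: stretches of the mouse genome that had no ATAC-seq peak in either library at 0 hours and a peak in at least 3 of the 4 libraries taken at 12 and 24 hours. They were chosen by these measured peak calls, after peaks of the 8 libraries that overlapped by 1 bp or more were merged on the 19 autosomes and X. The rule found 723 of 32720 merged regions (2.21%). Presence and strength at 0, 12 and 24 hours are therefore given as descriptions only, while the calls at 6 hours, the position among genes and the promoter sequences were not used to choose them.

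The study asked how open chromatin changed when the transcription factor Klf4 was switched on in acute myeloid leukaemia. All 8 libraries came from leukaemic mouse bone marrow, from GFP-positive cells with the MLL-AF9 fusion and the TetO-Klf4 construct, which doxycycline induces; the labels give the line as C57BL/7. Cells were sorted at 0, 6, 12 and 24 hours, with 2 libraries at each time. Doxycycline at 0h, the number of mice behind a time's libraries and the promoter driving the fusion are not stated in the labels. They list no group without the construct, so induction and time in the experiment cannot be told apart.

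ATAC-seq marks open chromatin because a transposase inserts sequencing adapters preferentially where nucleosomes leave DNA exposed, mostly at promoters and at distal enhancers. KLF4 is a zinc-finger factor that binds GC-rich CACCC-type sites and is known as a reprogramming factor and as a factor of monocyte differentiation. MLL-AF9 is a fusion oncoprotein that keeps genes of the stem-cell programme, among them Hoxa9, active in myeloid progenitors.

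The working name of the set, regions that open late and stay open, was only partly borne out. A peak was already called in at least 1 of the 6h libraries for 503 of the 723 regions (69.6%, Wilson 95% interval 66.1 to 72.8), against 65.1% of all merged regions. Both 24h libraries had a peak at 321 (44.4%, 40.8 to 48.0). The set is therefore called the gained regions below. The Wilson intervals cover counting error over regions only, not the spread between libraries.

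Promoter sequence shows what the gained regions near transcript starts look like, and whether the letters of a KLF site occur there. The strongest summit of 90 gained regions fell in one of the 32619 promoter windows of a RefSeq table (GRCm38.p6, 250 bases before to 50 after a start). The 6 windows below were picked after their values were seen. Smyd5, Zfp3, Lipt1 and Htatip2 are among the highest-ranked coding promoters with a KLF match, Vav1 is a promoter of a blood-cell gene with no peak at 6 hours, and Dhx36 is the highest-ranked promoter and has no match. Each line gives the 250 bases before the start, 5′ to 3′ on the gene's strand, at chr3:62506989-62507238 (minus strand) for Dhx36 and, all on the plus strand, chr6:85431726-85431975 for Smyd5, chr11:70764197-70764446 for Zfp3, chr1:37871969-37872218 for Lipt1, chr7:49758856-49759105 for Htatip2 and chr17:57278850-57279099 for Vav1. Capitals mark matches to GGGNGTGG, a KLF-type motif, or to its reverse complement.
Dhx36: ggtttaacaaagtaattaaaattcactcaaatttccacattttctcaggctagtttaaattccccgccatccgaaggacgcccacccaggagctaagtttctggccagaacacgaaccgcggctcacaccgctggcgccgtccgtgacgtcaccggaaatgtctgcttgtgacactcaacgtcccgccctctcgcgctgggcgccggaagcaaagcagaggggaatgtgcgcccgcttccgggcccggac
Smyd5: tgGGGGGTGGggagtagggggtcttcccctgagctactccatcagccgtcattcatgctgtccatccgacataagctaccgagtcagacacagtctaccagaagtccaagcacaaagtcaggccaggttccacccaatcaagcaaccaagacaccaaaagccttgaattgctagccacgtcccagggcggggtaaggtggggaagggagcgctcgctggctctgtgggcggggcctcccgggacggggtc
Zfp3: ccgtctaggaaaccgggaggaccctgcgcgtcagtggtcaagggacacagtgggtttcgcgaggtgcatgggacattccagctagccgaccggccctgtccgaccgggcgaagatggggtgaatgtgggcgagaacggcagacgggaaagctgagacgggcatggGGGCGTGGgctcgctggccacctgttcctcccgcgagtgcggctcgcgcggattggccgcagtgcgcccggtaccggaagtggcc
Lipt1: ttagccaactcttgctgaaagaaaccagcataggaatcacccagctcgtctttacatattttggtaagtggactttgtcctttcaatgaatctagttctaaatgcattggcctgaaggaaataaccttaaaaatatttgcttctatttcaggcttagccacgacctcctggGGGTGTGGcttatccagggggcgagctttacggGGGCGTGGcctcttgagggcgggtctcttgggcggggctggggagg
Htatip2: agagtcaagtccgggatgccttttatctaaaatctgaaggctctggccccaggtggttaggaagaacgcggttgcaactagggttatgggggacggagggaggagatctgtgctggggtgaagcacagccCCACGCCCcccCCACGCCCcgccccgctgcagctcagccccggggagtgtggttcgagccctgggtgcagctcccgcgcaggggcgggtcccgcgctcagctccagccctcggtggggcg
Vav1: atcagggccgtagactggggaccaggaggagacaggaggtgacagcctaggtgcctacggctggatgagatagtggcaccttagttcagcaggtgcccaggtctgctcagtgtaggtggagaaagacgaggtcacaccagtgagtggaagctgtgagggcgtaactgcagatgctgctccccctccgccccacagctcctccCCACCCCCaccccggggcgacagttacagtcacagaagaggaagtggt
The Lipt1 and Htatip2 windows each hold 2 matches, and in Htatip2 both are on the opposite strand, 3 bases apart. A match describes letters and not a bound site, and the absence of capitals in Dhx36 says only that these letters are not in this window.

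The 4 later libraries called the gained regions unevenly. A peak was present at 685 and 649 of them in the first and second 12h libraries, and at 534 and 510 in the 24h libraries. At 6 hours, which the rule did not use, the numbers were 353 and 360. All 4 libraries of 12 and 24 hours had a peak at 209 regions (28.9%). The most frequent single absence was the second 24h library (213 regions), then the first 24h library (189), the second 12h library (74) and the first 12h library (38). Both 12h libraries had a peak at 611 regions (84.5%). The order of the absences follows the length of the lists, which held 14822 peaks in the second 24h library, 15104 in the first, 19722 in the second 12h library and 21895 in the first. Over all merged regions the 12h libraries had a peak at 66.1% and 59.6% and the 24h libraries at 45.5% and 44.8%, so fewer calls at 24h were a feature of the series as a whole.

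**Figure D1:**
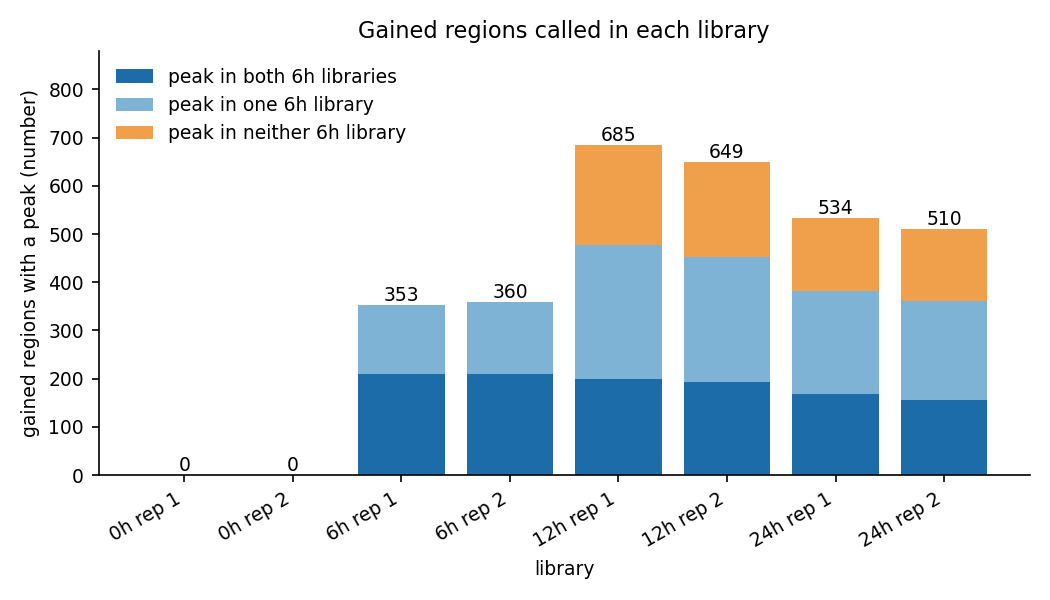
Number of gained regions with a peak (vertical axis) in each library (horizontal axis), stacked by whether both, 1 or neither of the 6h libraries had a peak. The count is 0 at 0h by the rule, 353 and 360 at 6h, 685 and 649 at 12h, then 534 and 510 at 24h.

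How many regions meet the rule depended on single libraries. Without the first 0h library 2991 regions qualified, and without the second 1131. Leaving out a 12h or 24h library relaxes the rule to 2 of 3, and then 994 regions qualified without the first 12h library, 1162 without the second, 1719 without the first 24h library and 1762 without its replicate. The second 0h library had the fewest background tags, 1.5 per kb, against 2.67 in the first and 2.23 to 2.63 in the libraries of 12 and 24 hours. The part of these depth differences in the number of gained regions was not tested. When every list was cut to its 14822 strongest peaks, 723 regions again met the rule, but only 347 of the original 723 (48.0%) were among them.

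Across the whole series the lists held 14822 to 21895 peaks. Myeloid marker genes had a peak within 10 kb for 10 to 13 of 14 genes in each library. Erythroid markers had one for 3 of 10 in every library, B-lineage markers for 3 to 6 of 10 and T and NK markers for 6 to 9 of 12. Stromal and endothelial markers had one for 7 and 3 of 12 at 0h and 1 and 3 of 12 at 24h. No gained region was assigned to a B-lineage, T or NK, erythroid or stromal marker gene. These lists had only 3, 8, 3 and 9 genes with a region, and 7, 22, 8 and 21 regions. Gained regions were 2.21% of all merged regions, so their absence from these few regions says little. In bulk libraries, a change in the share of a cell type and a change within cells cannot be told apart.

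Peaks in the gained regions were weak. Each peak's fold enrichment, the authors' own value, compares the tags piled up at the summit with the local background. Because depth affects this ratio, each fold was also ranked within its own list, from 0 for the weakest peak to 100 for the strongest. The median fold over called gained regions was 6.46 and 6.34 at 6h, 6.82 and 6.69 at 12h, then 6.27 and 6.33 at 24h. The median percentile was 27.7 and 27.5 at 6h, 32.6 and 30.2 at 12h, then 23.5 and 23.2 at 24h. In words, the typical called gained region sat in the lower part of each of these lists. The lists differ in length and the 12h and 24h calls chose the set, so these values give no change with time.

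The number of tags behind these peaks was small. The median pile-up at the summit was 10 tags in both 6h libraries, 12 and 11 at 12h, then 9 and 10 at 24h, where the smallest pile-up of any called peak was 5. Median peak width ran from 231 to 281 bp. For comparison, the 11141 regions that met the same later rule but had a peak in both 0h libraries, called constant regions here, had median percentiles from 62.8 to 72.9 and median pile-ups from 13 to 27 tags. Another 2673 regions met the later rule with a peak in 1 of the 0h libraries, and their median percentiles, from 29.1 to 43.0, lay between the other sets.

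**Figure D2:**
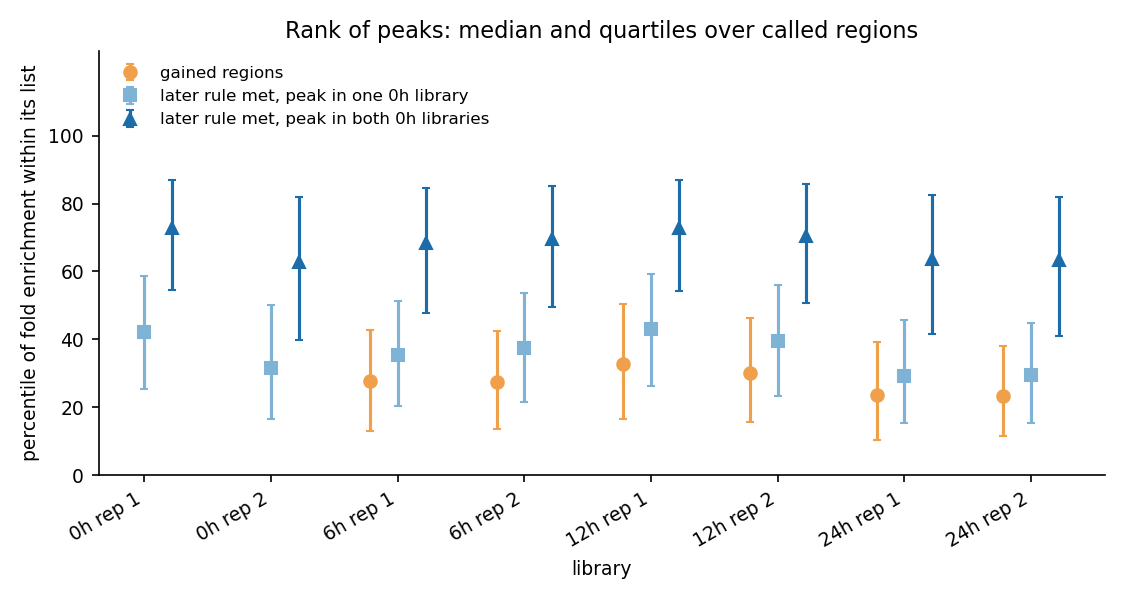
Percentile of fold enrichment within each library's own list (vertical axis, 100 is strongest) for the regions called in that library (horizontal axis). Points are medians and bars run from the lower to the upper quartile. Gained regions have medians of 23.2 to 32.6, regions with a peak in 1 of the 0h libraries 29.1 to 43.0, and regions with a peak in both 62.8 to 72.9.

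Replicate libraries ordered the gained regions only loosely. Across regions called in both libraries of a time, Spearman's rho of fold was 0.45 at 12h (611 regions), 0.37 at 24h (321) and 0.33 at 6h (210), against 0.72, 0.73 and 0.72 in the constant regions. The points share their libraries, and regions are not replicates. Ranks among gained regions, including those used below to choose examples, are therefore imprecise.

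At the edge of the rule, regions just outside were weaker still. The 1373 regions with no 0h peak and a peak in 2 of the 4 later libraries had median percentiles of 23.8 and 21.0 at 12h and 16.6 and 16.4 at 24h. The 514 regions inside by 3 of 4 had 30.1 and 28.4, then 19.3 and 20.2. The 209 called in all 4 had 38.6 and 33.3, then 31.0 and 29.6. Strength thus changed gradually across the threshold. The highest-ranked outside region with an assigned coding gene lay 628 bp from an end of Gm13277 (chromosome 4, 88788410 to 88788667), with folds of 14.9 and 9.37 at 12h and no peak at 24h. Another, inside Limk2, a kinase of the actin regulator cofilin, was called at fold 10.7 in the first 12h library and 10.9 in the first 24h library only.

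Calls at 6h differed among the gained regions, and a peak in only 1 of the libraries was the most frequent case. Both 6h libraries had a peak at 210 regions (29.0%, 25.9 to 32.5), 1 of them at 293 (40.5%, 37.0 to 44.1) and neither at 220 (30.4%, 27.2 to 33.9). Over all merged regions, 41.5% had a peak in both and 34.9% in neither. Only the 220 regions fit the description of opening after 6 hours, and even there the absence of a peak is a missed threshold and not a measured zero.

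The 6h calls went with the 0h calls. Among constant regions both 6h libraries had a peak at 91.1% (90.6 to 91.6) and neither at 1.59% (1.37 to 1.84). With a peak in 1 of the 0h libraries the shares were 58.4% (56.5 to 60.2) and 11.0% (9.87 to 12.2). The sets can also be laid out by bands of mean percentile over the 4 later libraries, with 0 where a library had no peak. From the weakest to the strongest band, both 6h libraries had a peak at 20.5%, 16.0%, 29.6%, 38.2% and 52.1% of gained regions. The constant regions of the same bands had 62.9%, 55.1%, 68.3%, 76.6% and 96.6%. The bands use the 12h and 24h values that chose the gained regions, and the strongest holds 8883 of the 11141 constant regions but 96 of the 723 gained ones. Strength is therefore not matched between the sets, and its part in the difference at 6h was not tested.

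**Figure D3:**
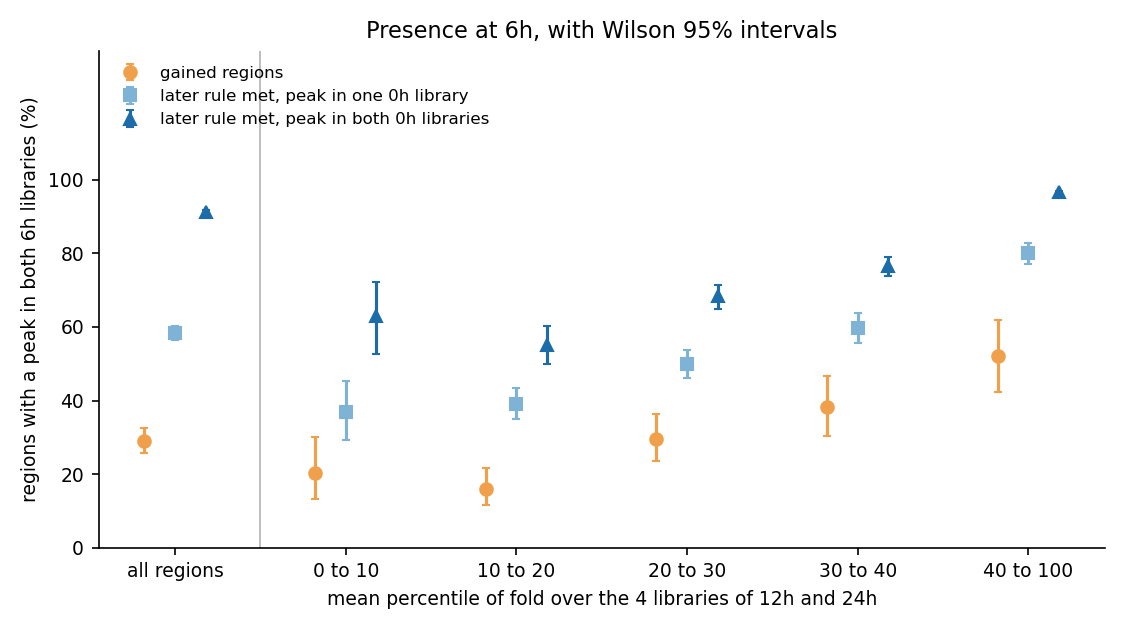
Share of regions with a peak in both 6h libraries (vertical axis, percent) over all regions of a set and within bands of mean percentile of fold over the 12h and 24h libraries (horizontal axis), with Wilson 95% intervals. Gained regions run from 16.0% to 52.1% across the bands and constant regions from 55.1% to 96.6%.

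A mirror of the rule gave nearly the same 6h shares. The 2032 regions with a peak in at least 3 of the 4 libraries of 0 and 12 hours and in neither 24h library had a peak in both 6h libraries at 27.0% (25.1 to 29.0), in 1 at 41.3% and in neither at 31.6% (29.7 to 33.7). These intervals overlap those of the gained regions. In the gained regions, those called in all 4 later libraries had a peak in both 6h libraries more often, at 42.1% (35.6 to 48.9), than those called in 3 of 4, at 23.7% (20.3 to 27.6).

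The 220 regions without a 6h peak were also the weaker ones later. Their median percentiles were 25.9 and 24.99 at 12h and 20.4 and 17.9 at 24h. The 210 regions with a peak in both 6h libraries had 39.9 and 39.6 at 12h and 30.5 and 30.3 at 24h. The order was the same in each of the 4 later libraries.

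Most gained regions lay away from gene ends. The strongest summit was within 1 kb of an end of a coding gene in 131 of 723 (18.1%, 15.5 to 21.1), against 30.6% of all merged regions and 60.2% (59.3 to 61.1) of constant regions. It was 1 to 10 kb away in 224 (31.0%), 10 to 100 kb away in 311 (43.0%) and farther in 57 (7.88%), where all merged regions had 23.8%, 37.2% and 8.51%. The median distance was 10462 bp, against 7755 bp over all merged regions and 230 bp in constant regions. Inside a coding gene lay 58.9% (55.3 to 62.5) of gained regions and 54.5% of all regions, without a distinction of exons and introns. The mirror set, absent at 24 hours, was near gene ends in 14.9% (13.4 to 16.5), an interval that overlaps that of the gained regions.

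With whole peaks merged, few gained regions lay beside a 0h peak. A 0h peak lay within 1 kb of 50 (6.92%, 5.28 to 9.002) and within 10 kb of 319 (44.1%), and the median distance was 12137 bp. The 1373 regions just outside the rule had similar values, 6.34% (5.17 to 7.75), 39.9% and 13798 bp. The intervals of the shares within 1 kb overlapped. Peaks overlapping a 0h peak were merged with it, so neither set could include them. A low share is therefore partly built in and is not read as a trait of the gained regions. In gained regions, the share within 1 kb depends on how peaks are joined and counted. It was 25.7% with windows of 200 bp around summits. When a library counted only where its peaks covered 50% of the region, it was 47.6%. That share takes in regions with a 0h peak of less cover inside them, not only beside them. By chromosome, gained regions made up from 1.68% (chromosome 14) to 3.46% (chromosome 15, 2.61 to 4.57) of merged regions.

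The 10 highest-ranked gained regions called in all 4 later libraries lay inside the assigned gene in 6 cases and outside it in 4. A region was assigned to the coding gene with the nearest end within 100 kb. The first lay 8559 bp from Btbd16 (chromosome 7, 130834421 to 130834599). Its fold was 10.7 and 10.6 at 12h and 11.1 and 12.7 at 24h, and 12.0 in the first 6h library with no peak in the second. A region inside Slc36a3, of the SLC36 family of amino acid transporters (chromosome 11, 55130998 to 55131685), had folds of 9.14 and 10.9 at 6h, 11.0 and 8.24 at 12h, then 12.1 and 10.6 at 24h. At Btbd16 both 24h folds were above both 12h folds, and at Slc36a3 they overlapped. Such comparisons, here and below, are between lists of unlike depth, and no change with time was tested.

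A region inside Itgb2 was called in all 6 libraries after 0 hours (chromosome 10, 77550953 to 77551274). Itgb2 encodes the beta chain shared by the leukocyte integrins. In each 6h library its summit carried 23 tags, with 32 and 25 at 12h and 22 and 20 at 24h. The 12h folds were 9.65 and 8.41 and the 24h folds 11.1 and 8.96, so these times overlapped.

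The region inside Egln2, a prolyl hydroxylase that marks hypoxia-inducible factors for degradation, was the most even of the 10 (chromosome 7, 27159797 to 27160222). Its folds were 10.2 and 9.71 at 6h, 8.83 and 9.48 at 12h, then 8.88 and 9.80 at 24h. The 6h folds were slightly above the 12h folds, and those of 24h overlapped both.

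A region inside Mmp8, the neutrophil collagenase, lay 928 bp from a gene end (chromosome 9, 7567331 to 7567652). Its folds were 6.49 and 6.42 at 6h, 9.22 and 10.8 at 12h, then 7.32 and 9.84 at 24h. The 12h and 24h values were all above the 6h values, and those of 12h and 24h overlapped. Regions near Rsl24d1 and Myo16 and inside Ccbe1, which encodes an extracellular protein of lymphatic development, and a region near Dynlt1b, a dynein light chain, also had a peak in both 6h libraries.

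Anp32e encodes a chaperone for H2A.Z, a variant histone. Inside this gene lay the highest-ranked region without any 6h peak (chromosome 3, 95942652 to 95942991). Its folds were 10.1 and 12.7 at 12h and 9.50 and 6.84 at 24h. The next 4 without a 6h peak were near Rspo2, a secreted enhancer of Wnt signalling, near Pigm, inside Chmp4c, a subunit of the membrane-remodelling ESCRT-III complex, and near S1pr3, a sphingosine-1-phosphate receptor. At Rspo2 (chromosome 15, 42983177 to 42983493, 37447 bp from the gene end) the folds were 7.65 and 6.75 at 12h and 8.49 and 12.2 at 24h. At S1pr3 (chromosome 13, 51381546 to 51382086) they were 9.88 and 9.51 at 12h and 8.44 and 5.47 at 24h. These examples went in opposite directions from 12h to 24h, and with 2 libraries a time neither direction was tested.

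**Figure D4:**
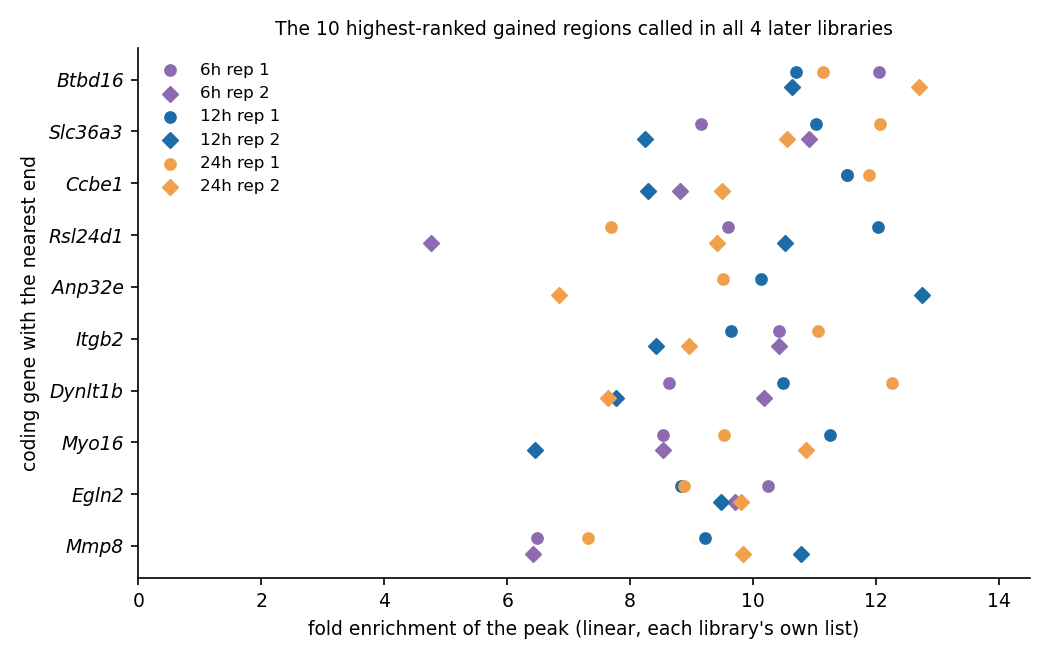
Fold enrichment (horizontal axis, linear, the authors' value in each library's own list) of the 10 highest-ranked gained regions called in all 4 libraries of 12 and 24 hours, by assigned gene (vertical axis). Circles are replicate 1 and diamonds replicate 2 of 6, 12 and 24 hours. A missing point is a library without a peak, as at Anp32e, which has none at 6h; the folds of 12h and 24h overlap at 7 of the 10 regions.

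Near gene ends the highest-ranked regions beside Mmp8 were at Cbx2, Dhx36, Smyd5 and Tomm22. Cbx2, a chromodomain subunit of Polycomb repressive complex 1, had a region 19 bp from a gene end (chromosome 11, 119022843 to 119023418). Its folds were 8.38 and 7.28 at 6h, 7.84 and 9.29 at 12h, then 8.41 and 11.6 at 24h. The Dhx36 promoter, printed above, belongs to a helicase that unwinds G-quadruplexes. It had no peak in the first 12h library, and folds of 13.7 and 12.7 at 6h, 9.65 in the second 12h library, and 11.9 and 11.0 at 24h. Its folds were highest at 6h, and it met the rule by 3 of 4 libraries.

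The Smyd5 promoter, of a SET and MYND domain protein lysine methyltransferase, had its summit at the start itself. Its folds were 7.65 and 8.76 at 6h, 8.66 and 8.88 at 12h, then 10.3 and 7.43 at 24h. Tomm22, a receptor of the mitochondrial import complex, had folds of 8.34 and 9.60 at 12h and 7.07 and 8.45 at 24h, and 8.40 in the second 6h library only. At both promoters the folds of 12h and 24h overlapped.

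Il4ra and Il21r, receptors of interleukins 4 and 21 that lie side by side on chromosome 7, both had a gained region at their start, which was noticed after the values were seen. At Il4ra (125552077 to 125552485) the folds were 8.54 and 7.68 at 6h, 7.67 and 7.95 at 12h, then 8.24 and 9.09 at 24h. At Il21r (125603186 to 125603629) they were 8.78 and 7.37 at 12h and 8.97 and 7.39 at 24h, and 7.37 in the second 6h library only. Both were called in all 4 later libraries.

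The Vav1 promoter region, at a guanine nucleotide exchange factor of blood cells (chromosome 17, 57278993 to 57279345), shows how fold and tag number can part. Its folds were low, 5.80 and 5.53 at 12h and 5.72 in the first 24h library, over pile-ups of 16, 15 and 11 tags. Zfp36, picked after its values were seen, encodes an RNA-binding protein that speeds messenger RNA decay. It had pile-ups from 16 to 27 tags and folds from 3.45 to 4.71 (chromosome 7, 28378936 to 28379584). Its mean percentile was 0.206, and a 0h peak lay 1532 bp away.

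KLF letters were counted only in promoter windows, which held the strongest summit of 90 of the 723 gained regions (12.4%). GGGNGTGG, searched on both strands of the 300-base windows, was found in 28 of 90 (31.1%, 22.5 to 41.3), against 17.7% of all 32619 windows and 25.3% of the 6748 windows in any merged region, a share inside the interval of the gained regions. It was found in 26.5% (25.3 to 27.7) of 5007 windows in constant regions, an interval inside that of the gained regions, in 19.3% (16.4 to 22.7) of 595 windows with a peak in 1 of the 0h libraries, and in 15.0% (10.5 to 21.1) of 173 windows of the regions absent at 24 hours. The share in gained regions ran from 22.4% to 32.2% over the other ways of processing, and its interval then took in the 17.7% of all windows in 4 of them. These were lists of equal length (22 of 96, 15.6 to 32.3), all 4 libraries required (8 of 35, 12.1 to 39.02), 50% cover (29 of 124, 16.8 to 31.6) and leaving out the second 0h library (34 of 146, 17.2 to 30.8).

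By 6h call, KLF letters were found in 10 of 30 windows with a peak in both 6h libraries, 8 of 37 with 1, and 10 of 23 (43.5%, 25.6 to 63.2) with none, and the intervals overlapped. Base composition moved with the sets. The median GC content of the windows was 59.7% in gained regions, 63.0% in constant regions and 53.0% over all windows, and the median number of CpG pairs was 16, 24 and 7. The part of base composition in the KLF share was not tested.

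Other motifs were searched in the same windows. The ETS letters CGGAAG were found in 22 of 90 gained windows (24.4%, 16.7 to 34.2), against 40.1% (38.7 to 41.4) in constant regions and 17.0% over all windows. The interval of the gained windows lies below the first share and includes the second. The NRF1 motif was found in 2 of 90 (2.22%, 0.612 to 7.74), against 15.1% (14.1 to 16.1) in constant regions and 4.63% over all windows, which lies inside the interval. PU.1 letters GAGGAAG were in 17.8% of gained windows and 13.4% of all windows, and RUNX letters TGNGGTT in 15.6% and 14.9%. CEBP letters TTGCNNAA were in 8.89% and 10.9%, AP-1 letters TGANTCA in 7.78% and 7.85%, E-box letters CAGNTG in 45.6% and 51.4%, and the IRF motif in 2.22% and 3.46%. All of these background shares lie inside the intervals of the gained windows. GATA letters AGATAA were in 4.44% (1.74 to 10.9), below the 11.2% of all windows and near the 4.17% of constant regions. GAGGAAG and CGGAAG share the letters GGAAG but differ in the base before them, so a single GGAAG cannot match both. All motifs were searched in the same windows, so these shares are not independent.

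**Figure D5:**
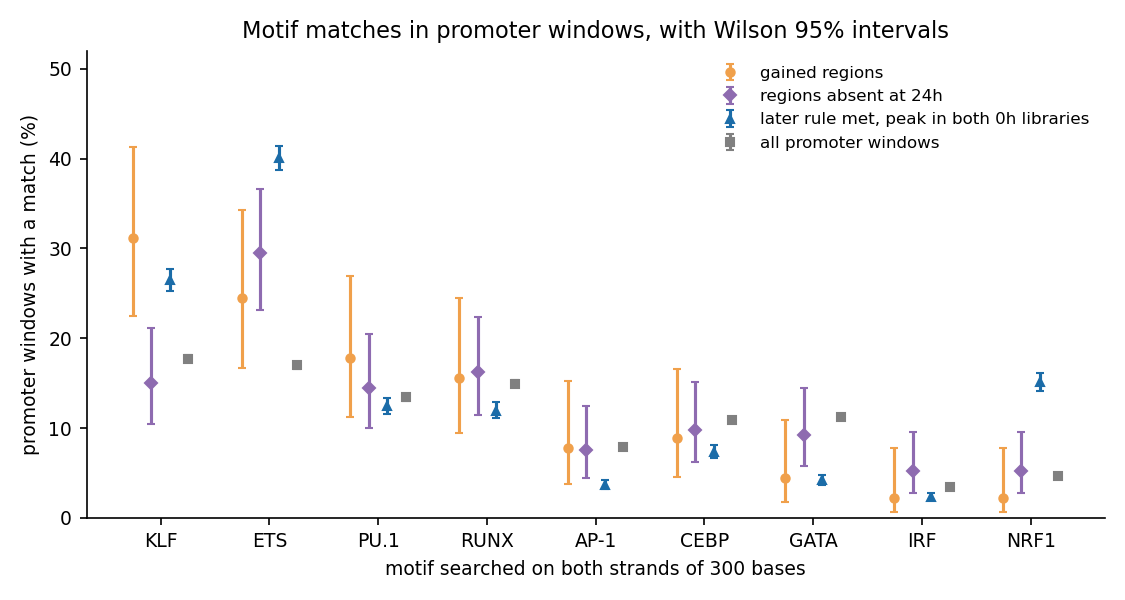
Share of 300-base promoter windows with a motif match on either strand (vertical axis, percent) for 9 motifs (horizontal axis), with Wilson 95% intervals. The gained regions have 31.1% for KLF and 24.4% for ETS, the constant regions 26.5% and 40.1%, and all windows 17.7% and 17.0%.

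Genes with a gained region numbered 637 of the 13692 coding genes with any merged region (4.65%). Gene lists were read against this share and against the 2.21% of regions, as counts only, because genes with more regions have more chances. The lists were also drawn up with earlier results of these data known. A share above the background, here and below, is therefore a description and not independent support.

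Blood transcription factors stood at 9 of 27 genes with a region, and 10 of their 161 regions (6.21%). The genes were Spi1, Cebpb, Cebpe, Runx3, Erg, Elf1, Bcl11a, Irf8 and Nfe2. Spi1 encodes PU.1, the master factor of the myeloid lineage. Its region, inside the gene (chromosome 2, 91089114 to 91089629), had folds of 6.80 and 7.48 at 12h, 6.06 and 4.41 at 24h, and 6.88 in the second 6h library only. The 12h values were above the 24h values.

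Irf8, a factor of monocyte and dendritic cell fate, had a region 20967 bp from its end with no 6h peak (chromosome 8, 120715295 to 120715707). Its folds were 7.04 and 6.33 at 12h and 7.21 and 5.40 at 24h. Bcl11a, a repressor of fetal globin genes and a lymphoid factor, had 2 regions, both without a 6h peak. At the one 26940 bp from the gene (chromosome 11, 24200242 to 24200563) the folds were 7.90 and 7.61 at 12h and 4.14 and 7.80 at 24h. Nfe2, a factor of megakaryocyte maturation, had folds of 5.18 and 6.08 at 12h and 4.86 and 8.11 at 24h inside the gene (chromosome 15, 103252682 to 103253002). Cebpe, a factor of granulocyte maturation, had a region 67 bp from a gene end with no 6h peak, at folds of 5.25 and 5.57 at 12h and 5.73 in the second 24h library.

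The self-renewal programme of MLL-AF9 had 3 of 25 genes and 3 of 168 regions (1.79%). Hoxa9, a homeobox gene that MLL fusions activate, had a region inside the gene (chromosome 6, 52226012 to 52226447), 3634 bp from the Mir196b hairpin. Its folds were 4.69 and 5.40 at 12h, 6.08 and 4.30 at 24h, and 4.65 in the second 6h library only. Mecom, which encodes the factor EVI1, had folds of 7.84 and 5.19 at 12h and 5.37 and 4.79 at 24h. Erg, of the ETS family, had a peak in both 6h libraries at fold 4.70. Its later folds were 8.55 in the first 12h library and 5.09 and 4.36 at 24h, with no peak in the second 12h library. Only this 8.55 lay above the median fold of its list, which was 8.20. The other folds of these genes lay below the median of their list. The share of regions was close to the background of 2.21%. The share of genes, 12%, was above the background of 4.65%, but these 25 genes had 168 regions and so more chances each. It is therefore not read as an excess.

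The monocyte and granulocyte lists were above both background shares, on counts of only 3 and 2 regions. Their shares of genes, 10.3% and 12.5%, were near the 12% of the self-renewal list. The lists differ in regions per gene, so their shares of genes are not on one scale. The monocyte and macrophage list had 3 of 29 genes, Ly6c2, Irf8 and F13a1, and 3 of 94 regions (3.19%). Ly6c2, a monocyte surface antigen, had a region 22 bp from a gene end, with folds of 5.39 and 7.17 at 6h, 4.99 and 4.83 at 12h, and 7.04 in the first 24h library. The granulocyte list had 2 of 16 genes, Mmp8 and Cebpe, and 2 of 27 regions (7.41%). Megakaryocyte markers had 3 of 5 genes with a region, Vwf, Nfe2 and Plek, and 3 of 23 regions (13.04%), while 6 to 8 of the 10 markers had a peak nearby in each library. Plek, or pleckstrin, a protein kinase C substrate of platelets and leukocytes, had folds of 9.98 and 8.97 at 12h, 5.97 and 6.39 at 24h, and no 6h peak. Both 12h values of Plek were above both 24h values.

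Polycomb group genes stood at 4 of 20, and 4 of 60 regions (6.67%): Cbx2, Phc2, Pcgf5 and Jarid2. Phc2, a subunit of Polycomb repressive complex 1, had folds of 9.47 and 7.62 at 6h, 10.5 and 7.81 at 12h, then 7.38 and 8.995 at 24h (chromosome 4, 128727273 to 128727636). Its summit also lay in the promoter window of the lncRNA gene Gm33712. Pcgf5, another subunit, had a region 71 bp from a gene end, with no peak in the first 24h library. Jarid2, a cofactor of Polycomb repressive complex 2, had no 6h peak, and folds of 5.65 and 5.58 at 12h and 7.68 and 5.44 at 24h.

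Other lists held at most 1 gene each. The KLF and SP family had 1 of 21, Sp2, with no 6h peak and folds of 8.52 and 7.72 at 12h and 8.58 in the first 24h library. Integrins, adhesion and migration had 1 of 22 (Itgb2), AP-1 and immediate early genes 1 of 23 (Ier2), apoptosis 1 of 27 (Bcl2l11), the cell cycle 1 of 27 (Cdkn1a) and NF-kB and inflammation 0 of 20. Bcl2l11, the pro-apoptotic protein BIM, had its region 70954 bp away inside the neighbouring gene Acoxl, with no 6h peak and folds of 8.55 and 7.72 at 12h and 7.22 in the first 24h library. Cdkn1a, the cell cycle inhibitor p21, had folds of 5.54 and 3.30 at 12h, 5.07 and 7.32 at 24h, and 3.72 in the second 6h library.

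Some genes had more than 1 gained region. Of the 637 genes, 29 had 2 and none had more, and 16 pairs of neighbouring gained regions lay within 20 kb. No background for these counts is given here, so they are descriptions only. Only some of the 29 are described below, and they were picked after their values were seen. Stat5b, a signal transducer of cytokine receptors, had 2 regions inside the gene, and both had a peak in both 6h libraries. The 2 regions of Nfe2l2, which encodes the oxidative stress factor NRF2, had no 6h peak, like the 2 of Bcl11a. At Nfe2l2, the region inside the gene (chromosome 2, 75682981 to 75683300) had folds of 6.35 and 7.89 at 12h and 5.51 in the first 24h library. Cdk19, a kinase of the Mediator complex, had 2 regions inside the gene without a 6h peak, with folds up to 12.3.

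Notch3, a Notch receptor, had 2 regions called in all 4 later libraries. At the nearer, 3049 bp from the gene (chromosome 17, 32169732 to 32170191), the folds were 5.46 and 7.27 at 6h, 5.62 and 9.53 at 12h, then 6.61 and 7.75 at 24h. Timp2, an inhibitor of matrix metalloproteinases, had only 2 merged regions in all, and both were gained. Its region 109 bp from a gene end had folds of 8.07 and 8.73 at 12h and 4.52 and 5.85 at 24h. The second region had folds of 7.85 and 6.99 at 6h, 8.37 and 9.93 at 12h, and 7.51 in the first 24h library. In both Timp2 regions the 12h values were above those of 24h.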

How the data were processed

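Open chromatin was profiled by ATAC-seq in 8 libraries. The submitters' processing notes name BWA, SAMtools, MACS2 and mm10, with versions, settings and read totals not given in the sources used here. Each library has its own deposited peak list, not a pooled one. In these lists the authors give each peak a fold enrichment (a linear ratio) and a −log10 p-value and −log10 q-value, the lowest −log10 q being 2.00. Folds depend on depth and were used to describe peaks and to rank them within a list. Where folds of a region at different times are set side by side, no change with time was tested. Summit pile-up and local background were recovered from fold and −log10 p, within a tolerance of 0.001, for 99.8% to 99.9% of peaks. The lowest background of a list over its smallest width, in tags per kb, served as depth index.

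Python 3.11.15, pandas 2.3.3, numpy 2.4.6, scipy 1.17.1 and matplotlib 3.10.9 were used. Merging, presence, the rule and the recovery of pile-ups were tested on simulated data. Genes came from a RefSeq table (GRCm38.p6) of 21631 coding genes with start, end and no strand, and distances are from the strongest summit to the nearer gene end. Transcript starts came from a second RefSeq table with 17274 of these genes (79.9%), so starts served for the promoter windows and as an alternative only. The 11 gene lists and 6 marker lists were matched by symbol, 271 of 271 entries for the gene lists. Members and lists were chosen with earlier results of these data known.

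Named regions are those with the highest mean percentile of fold over the 4 libraries of 12 and 24 hours: 10 in all 4, 5 with both and 5 with no 6h peak, 5 near a gene end, 3 in 3 of 4, 3 just outside, genes with 2 members, and up to 4 per list. Genes outside it, and those described among genes with 2 members, are said to be chosen after their values were seen, or complete a list. No test was run, because the rule used the calls and groups hold 2 libraries. Alternatives were lists of equal length, a −log10 q minimum of 5, a cover of 50%, windows of 200 bp at summits, all 4 later libraries, each library left out, and other distances.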

Additional observations from a re-analysis of the deposited data

How the results depend on the processing

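Depth and 2 libraries per time limit these results: a missing peak is a missed threshold, and pile-ups of about 10 tags lie close to the smallest called. With a −log10 q of at least 5, 668 regions met the rule and 411 of the 723 were among them; 50% cover gave 784 (438 shared) and windows at summits 864 (678 shared). Requiring all 4 later libraries, which also makes the pattern hold within each replicate number, served as the replicate block and gave 209 regions, 42.1% with a peak in both 6h libraries and 21.5% in neither. The labels tie a replicate number to no mouse, batch or day. Spearman's rho of fold at gained regions was 0.42 and 0.43 between 12h and 24h libraries of one number. Between replicates of these times it was 0.45 and 0.37. Libraries of unlike number at different times were not compared, so whether a number stands for anything shared was not tested. With 50% cover the shares with a peak in both and in neither 6h library were 23.6% and 36.0%. Leaving out each library in turn, the number of regions ran from 725 to 2991. It was 1131, 1162, 1719 and 1762 without the second 0h, the second 12h and either 24h library. With both 6h libraries kept, the share with a peak in both ran from 18.2% to 52.7%, and in neither from 15.0% to 45.7%. With only 1 of the 6h libraries kept, 50.4% or 51.3% of regions had no peak in it. The share near a gene end ran from 14.7% to 32.0%, and within 1 kb of a 0h peak from 2.57% to 7.75%. The share with KLF letters ran from 22.4% to 31.7%. The share near a gene end was 23.4% with equal lengths, 22.7% with 50% cover, 21.4% with windows, 33.8% within 5 kb, and 14.3% within 1 kb of a coding start, an alternative chosen after seeing the data. The share within 1 kb of a 0h peak was 4.49% with the stricter q, 3.46% with equal lengths and 25.7% with windows. With 50% cover it was 47.6%, which counts 0h peaks of less cover inside the region. Within 500 bp it was 3.73%. The causes of these shifts were not tested, beyond the looser rule when a library is left out. The planned motif window of 100 bp was not run, since no genome was used here.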

Other observations

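Hairpins of 9 microRNAs lay within 10 kb of a gained region. No such count over all merged regions is given here, so this number cannot be read as many or few. The nearest was Mir5135, 65 bp from a region called in all 4 later libraries and in 1 of the 6h libraries. The others were Mir196b, Mir7014, Mir1941, Mir6935, Mir1953, Mir7091, Mir6936 and Mir7657, at 3634 to 9569 bp. No microRNA was measured in these files.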
